A study of Mus musculus with 144 samples.

Results

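At 72 h, 8 RNA-Seq libraries of mouse hepatocytes treated with 10 nM TCDD were compared with 8 libraries of cells that received the DMSO vehicle. These 16 libraries were all those of that hour and 11.1% of a series of 36 groups of 4 libraries, which spans 9 time points from 2 to 120 h. Each arm held 4 libraries whose genotype label reads wild-type (WT) and 4 whose label reads DRE-null, the line the series title calls PkmΔDRE. The cells were primary hepatocytes obtained by collagenase perfusion of livers of male C57BL/6NCrl mice of 28 days. In the PkmΔDRE line, 1 dioxin response element in an intron of *Pkm*, the gene of pyruvate kinase M, was deleted by CRISPR-Cas9 in all cells of the animal, and the line was backcrossed and made homozygous. All cultures, vehicle included, stood on collagen in Williams' Medium E with dexamethasone, so the vehicle arm is a culture exposed to a glucocorticoid and to DMSO and not an untreated liver. The labels and the study's methods name different plate formats. The labels do not say which libraries came from the same animal or isolation, so the p-values below measure the spread between these libraries, which may be technical. In such bulk libraries, fewer cells of a type and less RNA per cell cannot be told apart.

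TCDD (2,3,7,8-tetrachlorodibenzo-*p*-dioxin) is a persistent ligand of the aryl hydrocarbon receptor (AHR). The ligand-bound receptor enters the nucleus, pairs with ARNT and binds dioxin response elements, whose core is GCGTG, and thereby switches on a battery of genes for xenobiotic metabolism that is typified in liver by the cytochromes P450 of family CYP1. The receptor also induces its own brakes, the AHR repressor and the ADP-ribosyltransferase TIPARP, and in liver TCDD is known for disturbing lipid, carbohydrate and bile acid handling.

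The files gave 15083399 to 24932218 read pairs counted on genes per library. Hepatocyte markers summed to 20478 to 53020 CPM (counts scaled by edgeR's TMM method to a library size of 1000000) in TCDD libraries and to 17775 to 41986 CPM in vehicle libraries, with *Alb* at 5187 CPM or more in all 16. Other hepatocyte markers were far lower, such as *Cyp2e1* with medians of 1.38 CPM with vehicle and 2.17 CPM with TCDD. *Cps1* had medians of 82.1 and 82.4 CPM. Lymphocyte markers summed to at most 0.788 CPM. *Pkm* (ENSMUSG00000032294) was the targeted gene, and the deleted element is too short and lies in an intron, so that counts per gene do not show it. Counts of *Pkm* also do not separate its isoforms *Pkm1* and *Pkm2*. Its 4 vehicle libraries labelled WT held 369, 339, 2017 and 475 CPM and the TCDD libraries of that label 367, 606, 1689 and 390 CPM. In the libraries labelled PkmΔDRE, *Pkm* stood at 366, 423, 436 and 688 CPM with vehicle and at 798, 567, 454 and 606 CPM with TCDD. The arms and the labels overlapped, and the log2 fold change of TCDD against vehicle was 0.15 (SE 0.38, adjusted p = 0.99). The groups below therefore carry the names that the labels give.

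Library 64, the fourth TCDD library labelled WT, stood apart. For 83.2% of the genes called below, its expression lay within the range of the 8 vehicle libraries, against 4.58% to 14.5% in each of the other 7 TCDD libraries. Vehicle libraries lay within the range of the other vehicle libraries for 52.7% to 89.3% of these genes, so library 64 sat where vehicle libraries sit. The lowest of these shares, 52.7%, belonged to library 27, a vehicle library labelled WT. For 35.1% of the called genes library 27 was the vehicle library closest to the TCDD arm. The label of library 64 was kept. Fold changes are of all 16 libraries where nothing else is said.

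**Figure D1:**
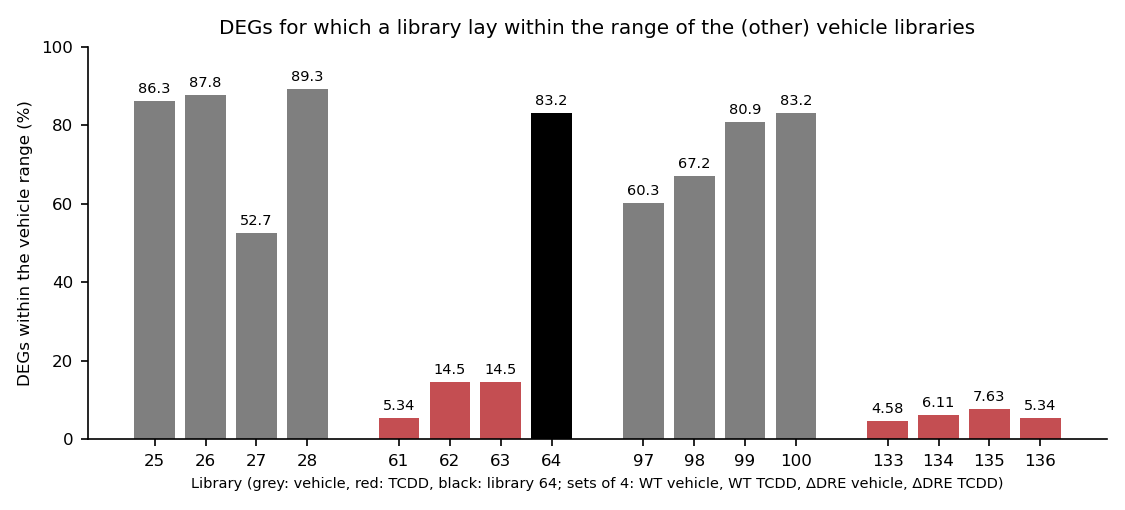
Percentage of the DEGs (vertical axis) for which each library of 72 h (horizontal axis, by library number) lay within the range of the vehicle libraries, a vehicle library being set against the other 7. Library 64 (black) stands at 83.2%, among the vehicle libraries (grey, 52.7% to 89.3%), and the other TCDD libraries (red) stand at 4.58% to 14.5%.

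With all 16 libraries and the genotype label as a covariate, 0.911% of the 14381 genes tested were differentially expressed genes (DEGs), defined by an adjusted p under 0.05 from edgeR's quasi-likelihood test and a change of 1.5-fold or more. Of these, 26 were repressed (0.181% of the genes tested) and the rest induced (0.73%). Induction was also larger than repression in log2 fold change. A vehicle mean under 1 CPM was found for 23 of the induced and 0 of the repressed genes, so the 2 sizes do not compare genes of like expression. The induced genes had a median log2 fold change of 1.93 and 51 of them changed more than 4-fold, while the repressed genes had a median size of 0.94 and 1 of them, *Lmcd1*, exceeded 4-fold. Without library 64, 308 of 14733 genes were DEGs (2.09%), 190 induced (1.29%) and the rest repressed (0.801%). Every DEG of the 16 libraries was among them, and the further 177 were 85 induced and 92 repressed genes. The arms did not overlap in 16 of the DEGs of the 16 libraries, against 0.132% of all genes tested. Without library 64 they did not overlap in 79 of the same DEGs, 67 induced and 12 repressed, against 0.814% of all genes tested. Leaving out library 64 moved the log2 fold change of each induced DEG of the 16 libraries by 0.06 to 0.34 and of each repressed DEG by -0.31 to 0.02, with a larger size in all but 2 of them. Library 64 lay within the vehicle range for 83.2% of these DEGs. Larger sizes without it therefore follow from its position, and the fit without it is no separate support for these DEGs. The median log2 fold change over all genes tested was -0.02 with library 64 and -0.01 without it.

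Genes of the AHR battery were among those with the largest induction. *Cyp1a1* (ENSMUSG00000032315), the CYP1 enzyme that oxidizes polycyclic aromatic hydrocarbons, was expressed in vehicle libraries at 2.72 CPM at the lowest, 12.9 at the median and 54.2 at the highest. In TCDD libraries it was 27.9 CPM at the lowest, 4719 at the median and 6756 at the highest. The lowest was library 64, within the vehicle range, and the other 7 libraries ran from 3397 to 6756 CPM, far above it. The log2 fold change was 7.88 (SE 0.97, adjusted p = 0.000515) and 8.06 without library 64 (SE 0.74, adjusted p = 7.5e-06). *Cyp1a2* (ENSMUSG00000032310), the constitutive hepatic member of the family, showed the same layout, with 4.37, 11.9 and 56.3 CPM in vehicle libraries and 13.99, 2439 and 4339 CPM in TCDD libraries. Its log2 fold change was 7.07 (SE 0.88, adjusted p = 0.000515) and 7.25 without library 64 (SE 0.62). *Cyp1b1* (ENSMUSG00000024087), a family member largely of extrahepatic tissues, went from 0, 0 and 1.87 CPM to 0.219, 614 and 1049 CPM, with 255 CPM as the lowest TCDD library other than 64, and its log2 fold change was 11.09 (SE 1.31, adjusted p = 0.000453) and 11.42 without library 64 (SE 0.90). The highest vehicle value was library 27, the next highest was 0.142 CPM, and without library 27 the log2 fold change of *Cyp1b1* was 14.61.

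The receptor's feedback genes rose as well. *Ahrr* (ENSMUSG00000021575), the AHR repressor, had 3 read pairs in all 8 vehicle libraries together and 3006 in the TCDD libraries. Relative to the TMM-scaled library sizes this was a ratio of 911 with a 95% counting interval of 312 to 4421. By library, TCDD values were 0.0875, 17.2 and 21.3 CPM at the lowest, median and highest, and the vehicle libraries reached 0.0833 CPM. The lowest of the TCDD values was library 64, next to the highest vehicle library, and the other 7 held 12.5 CPM or more. The log2 fold change was 9.38 (SE 0.89, adjusted p = 6.09e-05), 9.61 without library 64 (SE 0.42, adjusted p = 3.55e-10) and 10.32 without library 27. *Tiparp* (ENSMUSG00000034640), the ADP-ribosyltransferase that marks AHR for degradation, was 1.52, 5.16 and 16.8 CPM with vehicle and 5.55, 68.1 and 106.4 CPM with TCDD. Its log2 fold change was 3.45 (SE 0.54, adjusted p = 0.00296) and 3.71 without library 64 (SE 0.43), and every TCDD library but 64 was above every vehicle library.

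The 250 bases before the start site of a few of these genes show where the core of the response element falls close to the start. They are given for *Cyp1a1* (chr9:57697363-57697612, plus strand), *Ahrr* (chr13:74292332-74292581, minus strand), *Cyp1b1* (chr17:79715062-79715311, minus strand) and *Tiparp* (chr3:65528197-65528446, plus strand), and for the repressed gene with the largest change, *Lmcd1* (chr6:112273508-112273757, plus strand). All come from RefSeq on GRCm38.p6 and read 5′ to 3′ along the gene, with the core GCGTG, or CACGC where it lies on the other strand, in capitals.
Cyp1a1: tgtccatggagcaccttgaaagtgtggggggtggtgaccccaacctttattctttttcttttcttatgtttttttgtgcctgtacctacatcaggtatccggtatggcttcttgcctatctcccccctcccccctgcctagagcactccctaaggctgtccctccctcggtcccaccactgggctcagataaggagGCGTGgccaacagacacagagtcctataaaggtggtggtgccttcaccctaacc
Ahrr: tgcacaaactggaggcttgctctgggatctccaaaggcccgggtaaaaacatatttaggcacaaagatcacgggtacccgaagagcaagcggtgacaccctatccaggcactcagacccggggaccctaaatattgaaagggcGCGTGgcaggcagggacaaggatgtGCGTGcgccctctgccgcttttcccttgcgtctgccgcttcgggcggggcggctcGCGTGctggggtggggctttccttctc
Cyp1b1: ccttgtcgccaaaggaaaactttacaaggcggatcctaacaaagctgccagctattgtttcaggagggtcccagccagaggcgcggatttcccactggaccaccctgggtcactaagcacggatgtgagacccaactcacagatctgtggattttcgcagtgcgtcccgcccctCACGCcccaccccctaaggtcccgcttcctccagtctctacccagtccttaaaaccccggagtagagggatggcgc
Tiparp: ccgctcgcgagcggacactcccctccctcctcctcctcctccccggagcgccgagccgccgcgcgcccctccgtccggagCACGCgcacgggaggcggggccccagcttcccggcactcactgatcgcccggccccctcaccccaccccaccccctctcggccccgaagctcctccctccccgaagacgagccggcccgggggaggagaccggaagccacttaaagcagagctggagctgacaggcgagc
Lmcd1: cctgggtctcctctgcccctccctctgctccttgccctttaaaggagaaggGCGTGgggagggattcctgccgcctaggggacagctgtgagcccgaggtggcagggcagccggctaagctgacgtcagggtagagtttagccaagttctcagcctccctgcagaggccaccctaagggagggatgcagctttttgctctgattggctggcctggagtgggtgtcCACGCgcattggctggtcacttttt
The core began 54 bases before the start in *Cyp1a1*, 82 and 27 bases before it in *Ahrr*, which held another core farther upstream, 76 in *Cyp1b1*, 170 in *Tiparp* and 199 and 25 in *Lmcd1*. The window of *Cyp1a2* held none. In windows of 250 bases before to 50 after the start, a core on either strand was found in 35.2% of the 27025 genes of the RefSeq table and in 54.5% of the 10512 genes tested at 72 h that matched it. Of the induced DEGs, 32 of 73 that matched held it (43.8%), and of the repressed DEGs 14 of 22 (63.6%). A match of 5 letters is a description of the window and not a binding site.

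Of the list of AHR signalling genes, 18 were tested, 9 rose and none fell, where 0.73% of all genes tested were called higher. Their median log2 fold change was 2.00 against -0.02 for all genes tested. The list was chosen with earlier results of these data known, so its share and median are a description and no test. Besides the genes above, those that rose were *Nqo1*, *Xdh*, *Selenbp1* and *Tnfaip2*. *Nqo1*, a quinone reductase, was 14.2, 28.3 and 81.3 CPM with vehicle and 24.2, 117.5 and 304 CPM with TCDD, a log2 fold change of 2.07 (SE 0.40, adjusted p = 0.0162). The highest vehicle library was library 27, above the lowest value of 66.5 CPM among the 7 other TCDD libraries, so the arms overlapped for *Nqo1* even without library 64. *Xdh*, the xanthine dehydrogenase of purine breakdown, had 79.7, 138.2 and 327 CPM with vehicle and 159, 594 and 851 CPM with TCDD (log2 fold change 1.93, SE 0.29). *Selenbp1*, a selenium-binding methanethiol oxidase, rose by 2.16 on the log2 scale (SE 0.43) and *Tnfaip2*, a TNF-inducible protein, by 2.38 (SE 0.28). The components of the receptor itself were not called. *Ahr* was 18.9, 45.4 and 77.9 CPM with vehicle and 18.9, 38.1 and 40.1 CPM with TCDD (log2 fold change -0.51, SE 0.29, adjusted p = 0.681), its partner *Arnt* had a log2 fold change of 0.16 (SE 0.14) and *Arnt2* 0.42 (SE 0.30). Of the chaperones that hold the receptor in the cytosol, *Hsp90aa1*, *Hsp90ab1* and *Ptges3* had log2 fold changes between -0.23 and 0.18. *Lekr1* (1.25, SE 0.53) was not called either, *Ecel1* was called without library 64 only (6.73, SE 1.14, adjusted p = 0.0125, against adjusted p = 0.0626 with it), and *Aldh3a1*, at 0.333 CPM or less, was too low to be tested.

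**Figure D2:**
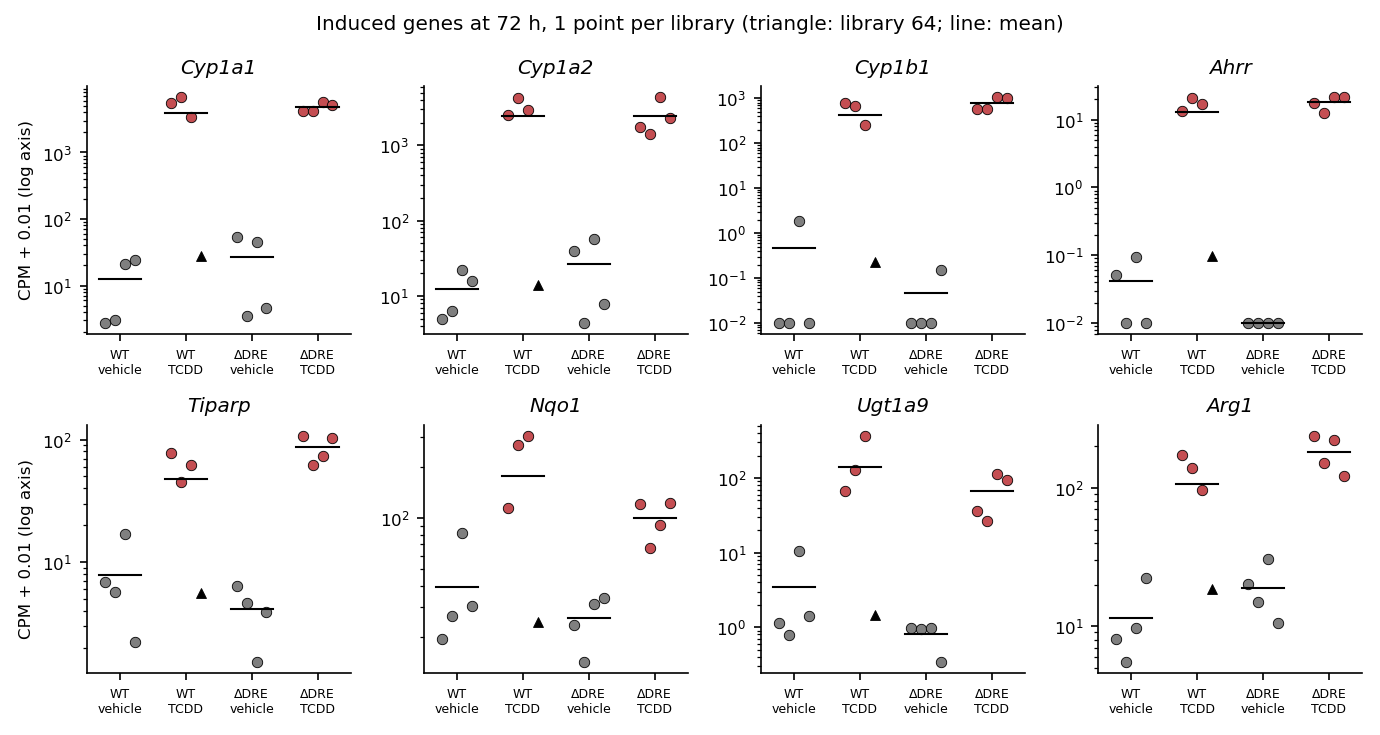
CPM of 8 induced genes in each of the 16 libraries of 72 h (vertical log axis, 0.01 added), in 4 groups by label and treatment, with 1 point per library and a line at the group mean. In the panels of the CYP1 genes and *Ahrr*, library 64 (black triangle) sits with the vehicle libraries while the other 7 TCDD libraries lie far above them.

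Members of the *Ugt1a* cluster, which attach glucuronic acid to drugs and endogenous compounds, were also induced. *Ugt1a9*, a transferase that conjugates phenols and drugs, was 0.331, 0.959 and 10.6 CPM with vehicle and 1.44, 80.9 and 363 CPM with TCDD, and its log2 fold change was 5.80 (SE 0.85, adjusted p = 0.00172), 6.06 without library 64 (SE 0.64) and 6.68 without library 27. Without library 64 the TCDD libraries ran from 26.5 to 363 CPM, all above the highest vehicle library, library 27. *Ugt1a7c* rose by 3.66 (SE 0.51), *Ugt1a6a* by 2.63 (SE 0.48), *Ugt1a5* by 2.61 (SE 0.39) and *Ugt1a6b* by 1.97 (SE 0.34). These genes share their last exons, and pairs on shared exons could not be assigned to one of them, so their separate values are uncertain. On the list of UDP-glucuronosyltransferases and sulfotransferases 4 of 16 genes tested rose, against 0.73% of all genes tested, and the median log2 fold change was 0.42 against -0.02. *Ugt1a7c* is not on that list.

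Few other oxidation genes were called, where 0.73% of all genes tested were called higher. *Fmo5*, a flavin monooxygenase, rose from a median of 138.5 to 474 CPM (log2 fold change 1.56, SE 0.30). Among CYP2 and CYP3 enzymes, *Cyp2a12* alone of 29 tested was called (1.54, SE 0.36, adjusted p = 0.0496), and this call was kept in 2 of the 16 fits that leave out 1 library. *Nqo1* was the 1 of 26 NRF2 target and glutathione genes called, and none of the 20 glutathione S-transferases tested was called. Without library 64, *Abcc4*, an efflux pump (1.03, SE 0.24), *Gstp2*, a glutathione S-transferase (1.22, SE 0.24), and *Por*, the reductase that feeds electrons to the P450s (1.23, SE 0.29), joined these lists. In all 16 libraries their adjusted p-values were 0.192, 0.108 and 0.203.

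Some induced genes of alcohol, ester and aldehyde metabolism were on no list and were named after their values were seen unless they belong to the 15 largest changes. *Adh7*, a retinol- and alcohol-oxidizing enzyme mainly of the stomach, was 0.656, 1.15 and 14.7 CPM with vehicle and 1.84, 58.7 and 455 CPM with TCDD (log2 fold change 5.28, SE 0.80, adjusted p = 0.00221, with 5.50 without library 64 and 6.12 without library 27). *Adh1*, the main liver alcohol dehydrogenase, was 64.4, 136.3 and 687 CPM with vehicle and 89.1, 1259 and 2458 CPM with TCDD (2.81, SE 0.51, adjusted p = 0.0105, and 3.01 without library 64). In both genes library 27 was the highest vehicle library and library 64 the lowest TCDD library, and the other 7 TCDD libraries lay above all vehicle libraries. *Ces1f* and *Ces1b*, carboxylesterases, rose by 4.13 (SE 0.95) and 2.75 (SE 0.52). Without library 27 *Ces1f* had 5.78. The call of *Ces1f* was kept in 2 of 16 fits without 1 library, and that of *Ces1b* in all 16. *Aox3*, an aldehyde oxidase, rose by 1.79 (SE 0.35).

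Several induced genes are known from neurons or other tissues. *Slitrk5*, a synaptic membrane protein, had no read pair in the 8 vehicle libraries and 240 in the TCDD libraries, so it was at least 72.8-fold higher, taking 3 counts over the vehicle libraries together as the limit a count of 0 allows. *Nefm*, a neurofilament subunit, was 0, 0.133 and 0.437 CPM with vehicle and 0.175, 4.85 and 16.6 CPM with TCDD (4.86, SE 0.70, adjusted p = 0.00172). *Dclk3*, a doublecortin-like kinase, was 0.0833, 0.971 and 1.72 CPM with vehicle and 0.350, 18.5 and 30.6 CPM with TCDD (4.39, SE 0.53, adjusted p = 0.000453). *Kcnv2*, a potassium channel subunit, rose by 4.42 (SE 0.89, and by 6.47 without library 27), *Rtn4rl2*, a Nogo receptor relative, by 3.97 (SE 0.73), *Cyfip2*, a regulator of actin branching, by 3.80 (SE 0.52) and *Sytl2*, a synaptotagmin-like protein, by 3.41 (SE 0.52). *Kcnv2* was called in 14 of the 16 fits without 1 library and the others in all 16. *Reln*, the extracellular protein reelin, was 0.947, 1.98 and 7.78 CPM with vehicle and 3.32, 64.5 and 482 CPM with TCDD (5.30, SE 0.79, adjusted p = 0.00195). The highest value was library 63, without which the log2 fold change of *Reln* was 4.17. It is also a marker of hepatic stellate cells, whose 7 tested markers had no other call. Stellate markers other than *Reln* summed to 11.6 to 81.7 CPM with TCDD and to 6.87 to 79.4 CPM with vehicle.

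Metabolic genes of hepatocytes rose in small numbers, where 0.73% of all genes tested were called higher. *Arg1* (ENSMUSG00000019987), the arginase that closes the urea cycle, was 5.49, 12.7 and 30.5 CPM with vehicle and 18.5, 145 and 237 CPM with TCDD. Only library 64 lay in the vehicle range, and the log2 fold change was 3.26 (SE 0.38, adjusted p = 0.000453) and 3.44 without library 64 (SE 0.29). It was the 1 called of 14 urea cycle genes, whose median log2 fold change was 0.10. *Acaa1b*, a peroxisomal thiolase, rose by 2.11 (SE 0.30) and *Acot4*, an acyl-CoA thioesterase, by 0.87 (SE 0.19), which made 2 of 32 genes of fatty acid oxidation. *Acot4* was called in 9 of 16 fits without 1 library. *Fabp1*, the liver fatty acid-binding protein, was 0, 0.343 and 0.802 CPM with vehicle and 0.107, 3.78 and 7.39 CPM with TCDD (3.27, SE 0.74, adjusted p = 0.0425), and *Lipc*, hepatic lipase, rose by 2.71 (SE 0.56, adjusted p = 0.0245). They were the 2 of 25 genes called for lipid uptake and droplets, and their calls were kept in 4 and 8 of 16 fits without 1 library. *Gckr*, a regulatory protein of sugar phosphorylation, rose by 1.75 (SE 0.29), *Xylb*, xylulokinase, by 1.02 (SE 0.16), and *Hsd17b13*, a lipid droplet enzyme, by 1.19 (SE 0.27), which was kept in 2 of 16.

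Single members of further lists were induced, where 0.73% of all genes tested were called higher. A single call is no result about its list. *Cpox*, the coproporphyrinogen oxidase of heme synthesis, was 16.9, 28.6 and 36.3 CPM with vehicle and 38.9, 59.2 and 78.1 CPM with TCDD, with no overlap even with library 64 (1.16, SE 0.19, adjusted p = 0.00463). It was the 1 of 26 heme and iron genes called. *Per2*, a repressor of the circadian clock and the 1 of 19 clock genes called, was 8.14, 10.0 and 13.3 CPM with vehicle and 13.95, 26.2 and 32.2 CPM with TCDD (1.20, SE 0.20, adjusted p = 0.00466), again without overlap. *Slc46a3*, a lysosomal transporter, rose by 2.38 (SE 0.39) as the 1 of 19 amino acid transporters and solute carriers called. *Cyp1a2* was the 1 of 16 called among Wnt and pericentral genes.

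Of 4 genes of EGF family ligands and receptors, put together after the values were seen, *Egfr* fell and *Ereg*, *Nrg1* and *Erbb3* rose. *Egfr* (ENSMUSG00000020122), the EGF receptor, was 249, 340 and 508 CPM with vehicle and 103.5, 155 and 310 CPM with TCDD, and fell by 1.08 on the log2 scale (SE 0.23, adjusted p = 0.0255), and by 1.27 without library 64 (SE 0.19). The highest TCDD value was library 64, and the other 7 ran from 103.5 to 177 CPM, below all vehicle libraries. *Ereg*, the ligand epiregulin, rose from 0.152, 0.450 and 1.25 CPM to 1.66, 3.68 and 6.86 CPM with no overlap (2.89, SE 0.40, adjusted p = 0.0012). *Nrg1*, the ligand neuregulin, rose by 0.97 (SE 0.18) and its receptor *Erbb3* by 0.73 (SE 0.15). *Egfr* was called in 10 of 16 fits without 1 library, *Erbb3* in 13 and the other 2 in all 16. Among other receptors, *Il1r1*, the interleukin 1 receptor, was 10.5, 21.9 and 40.6 CPM with vehicle and 25.4, 210 and 282 CPM with TCDD (2.87, SE 0.41, adjusted p = 0.00172). *Notch1* rose by 1.17 (SE 0.21), *Lrp4*, a member of the LDL receptor family, by 3.11 (SE 0.45) and *Entpd2*, an ectonucleotidase, by 2.80 (SE 0.38).

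**Figure D3:**
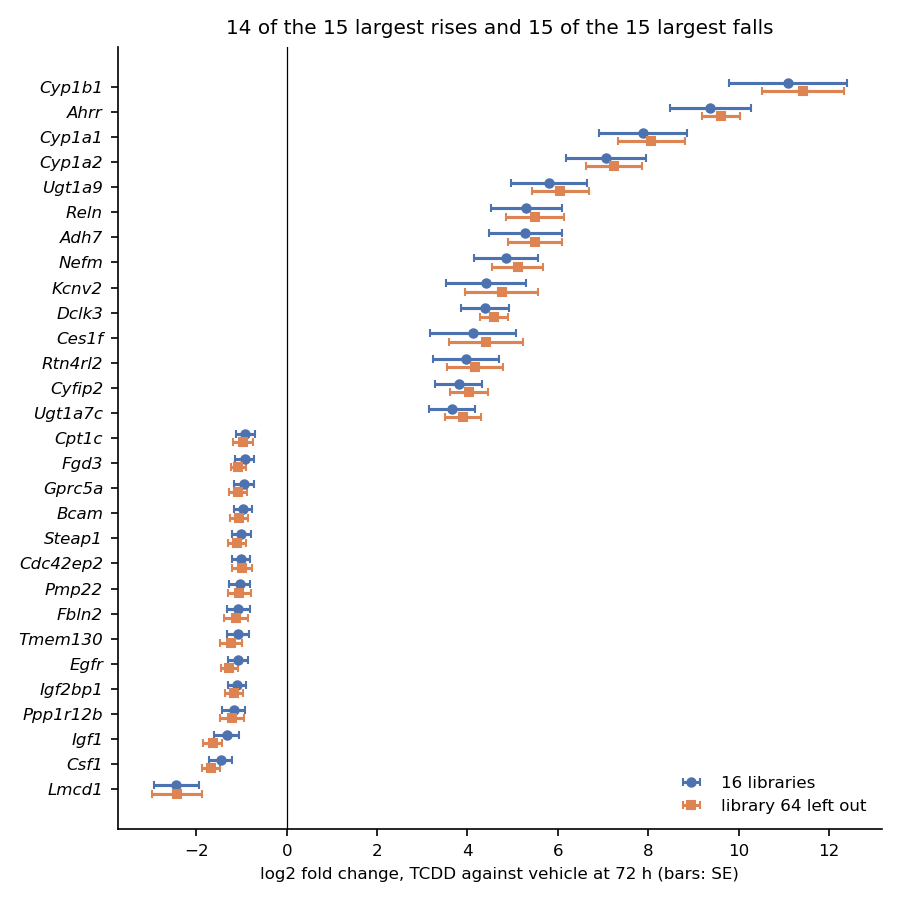
Log2 fold change of TCDD against vehicle at 72 h (horizontal axis, bars SE) of 14 of the 15 largest rises and of the 15 largest falls among DEGs with a mean of at least 1 CPM, with all 16 libraries (blue circles) and without library 64 (orange squares). Rises reach 11.09 in *Cyp1b1*, falls reach -2.44 in *Lmcd1*, and leaving out library 64 moves no value by over 1.5 times.

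Repression was led by *Lmcd1* (ENSMUSG00000057604), a LIM-domain co-regulator of transcription. It was 5.19, 10.2 and 83.3 CPM with vehicle and 1.15, 3.67 and 6.50 CPM with TCDD, so that the arms overlapped between 5.19 and 6.50 CPM, and it fell by 2.44 on the log2 scale (SE 0.50, adjusted p = 0.023). The highest vehicle value was library 27, without which it fell by 1.79. The call was kept in 11 of 16 fits without 1 library. *Csf1* (ENSMUSG00000014599), the macrophage growth factor, was 153, 205 and 337 CPM with vehicle and 43.7, 70.2 and 184 CPM with TCDD. Library 64 gave the highest TCDD value, and the other 7 reached 96.8 CPM, below all vehicle libraries. *Csf1* fell by 1.46 (SE 0.26, adjusted p = 0.00833), and by 1.68 without library 64 (SE 0.19, adjusted p = 5.59e-05). *Igf1* (ENSMUSG00000020053), the liver-made effector of growth hormone, was 33.4, 60.7 and 77.9 CPM with vehicle and 13.04, 19.8 and 55.8 CPM with TCDD, again with library 64 at the top and the other 7 at 25.6 CPM or below. It fell by 1.33 (SE 0.28, adjusted p = 0.0256) and by 1.64 without library 64 (SE 0.21), a call kept in 5 of 16 fits without 1 library. It was the 1 of 17 genes of the growth hormone and IGF axis called, where 0.181% of all genes tested were called lower. Of the 17, 13 had a negative value (median -0.26, against -0.02 for all genes tested).

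Other repressed genes concern RNA binding, the cytoskeleton and the cell surface. *Igf2bp1*, an mRNA-binding protein of fetal tissues, was 17.1, 23.6 and 38.1 CPM with vehicle and 6.84, 11.3 and 20.97 CPM with TCDD (-1.10, SE 0.19, adjusted p = 0.00861). *Cdc42ep2*, an effector of the small GTPase CDC42, was 7.54, 10.0 and 18.5 CPM with vehicle and 3.25, 5.55 and 6.54 CPM with TCDD, without overlap (-1.02, SE 0.20, adjusted p = 0.0162). *Csf1*, *Igf2bp1*, *Cdc42ep2* and *Sept8*, a septin named after its values were seen, were the 4 repressed genes that stayed called in all 16 fits without 1 library, against 59 of the induced genes. *Pmp22*, a membrane protein of myelin and epithelia, was 45.2, 59.6 and 195 CPM with vehicle and 30.6, 33.5 and 44.04 CPM with TCDD (-1.04, SE 0.23), with no overlap but a call kept in 5 of 16. *Ppp1r12b*, a myosin phosphatase subunit, fell by 1.18, *Fbln2*, the matrix protein fibulin 2, by 1.07 and *Tmem130*, a transmembrane protein, by 1.07. *Steap1*, a metalloreductase, fell by 1.01, *Bcam*, a laminin-binding adhesion molecule, by 0.96, *Gprc5a*, an orphan G protein-coupled receptor, by 0.94, *Fgd3*, a GTPase exchange factor, by 0.93 and *Cpt1c*, a carnitine palmitoyltransferase isoform of the brain, by 0.92. Their calls were kept in 2 (*Tmem130*) to 9 (*Steap1*) of the 16 fits. *Ccn2*, a matricellular target of YAP, was 513, 714 and 864 CPM with vehicle and 330, 421 and 665 CPM with TCDD (-0.67, SE 0.15, adjusted p = 0.0425, kept in 2 of 16). It was the 1 called of 17 Hippo and YAP genes, of which 16 had a negative value (median -0.30), and of 37 extracellular matrix genes (median 0.08). The median over all genes tested was -0.02, and 0.181% of them were called lower.

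**Figure D4:**
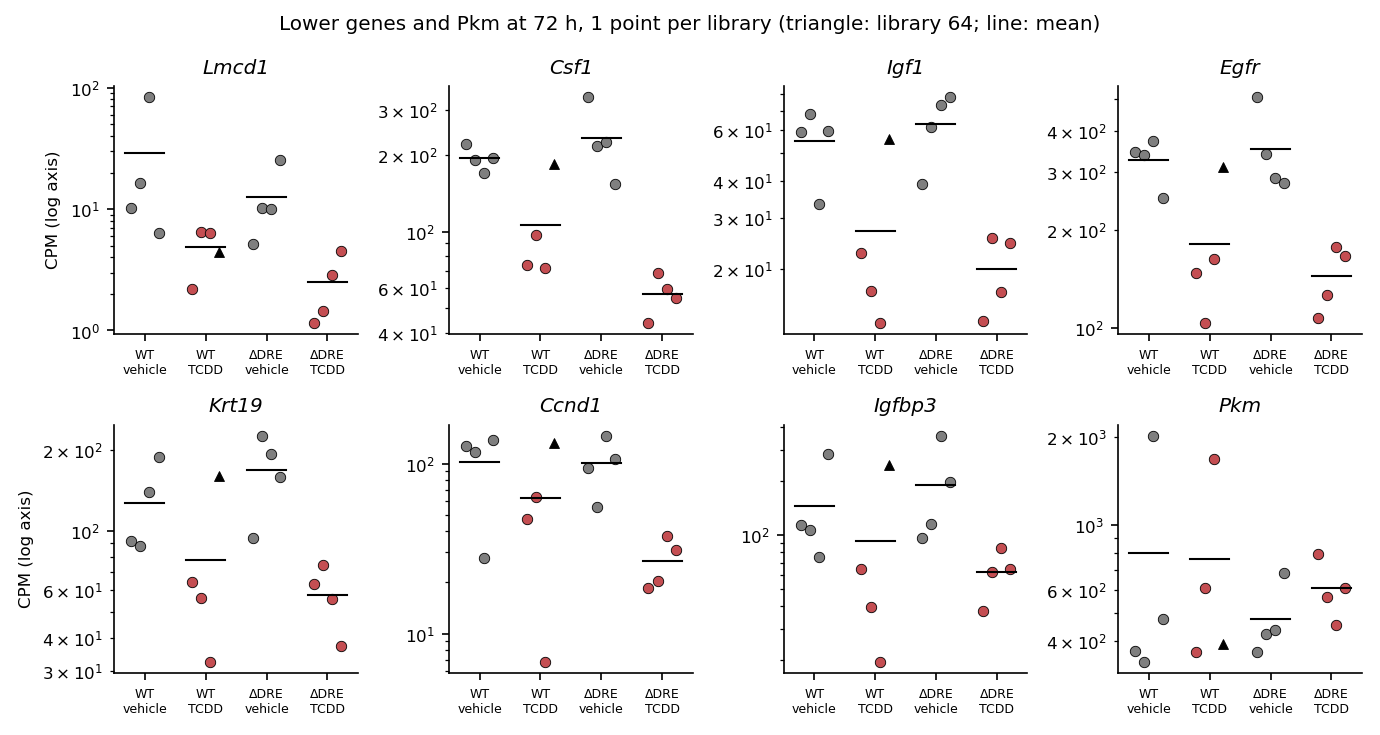
CPM of 7 genes called lower with all 16 libraries or without library 64, and of *Pkm*, in each of the 16 libraries of 72 h (vertical log axis), in 4 groups by label and treatment, with 1 point per library and a line at the group mean. Library 64 (black triangle) is the highest TCDD library for *Csf1*, *Igf1*, *Egfr* and *Krt19* and lies at vehicle levels, and the *Pkm* groups overlap.

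Without library 64, 0.801% of all genes tested were called lower, and these included growth and biliary genes that were not called with it. *Krt19*, a keratin of cholangiocytes and liver progenitors, was 88.2, 149 and 225 CPM with vehicle, 32.5 to 74.7 CPM in the 7 TCDD libraries and 160 CPM in library 64. Its log2 fold change was -1.42 without library 64 (SE 0.22, adjusted p = 0.00156) and -1.10 with it (SE 0.29, adjusted p = 0.107). *Sox9*, the transcription factor of biliary fate, had -0.69 (SE 0.17) and *Cdh1*, E-cadherin, -0.74 (SE 0.17), and these were 3 of the 13 fetal liver and progenitor genes tested, while *Prom1*, another progenitor marker, was higher (2.48, SE 0.56). With all 16 libraries *Sox9* had -0.59, *Cdh1* -0.60 and *Prom1* 2.23, with adjusted p-values of 0.174, 0.214 and 0.132. Cholangiocyte markers summed to 135.9 to 1136 CPM with TCDD (135.9 to 741 without library 64) and to 317 to 1379 CPM with vehicle, with *Krt19* and *Sox9* as the 2 of 7 called without library 64. The part of a change in cell types in these values was not tested.

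*Ccnd1*, cyclin D1, was 28.0, 112.3 and 145 CPM with vehicle, 6.81 to 63.5 CPM in the 7 TCDD libraries and 132.2 CPM in library 64 (-1.64 without it, SE 0.39, adjusted p = 0.0338, and -1.30 with it, adjusted p = 0.273). *Mcm5*, a replication helicase subunit (-0.94, SE 0.24), and *Rrm2*, which makes deoxynucleotides (-0.98, SE 0.20), were the other 2 cell cycle genes of 40 called without library 64. Of all genes tested, 0.801% were called lower in that fit. With it *Mcm5* had -0.77 (adjusted p = 0.236) and *Rrm2* -0.67 (adjusted p = 0.392). With all 16 libraries none of the 40 was called, 39 had a negative value and the median was -0.46, and without library 64 the median was -0.60. Over all genes tested, the medians were -0.02 and -0.01. *Igfbp3*, an IGF-binding protein, was 75.9, 115.3 and 356 CPM with vehicle, 19.6 to 84.6 CPM in the 7 TCDD libraries and 247 CPM in library 64, and fell by 1.67 without it (SE 0.33, adjusted p = 0.0106), with -1.10 when it was in (adjusted p = 0.412). *Hamp*, the iron hormone hepcidin, had -2.54 (SE 0.60) and *Nuak2*, a stress kinase and YAP target, -2.17 (SE 0.31) in the same fit, against -1.94 (adjusted p = 0.316) and -1.72 (adjusted p = 0.0607) with all 16 libraries. *Hamp* was 252 CPM in vehicle library 98 and 14.1 to 22.8 CPM in the other 3 of that group, and with library 98 left out and library 64 in it had -0.86 and was not called. *Tead4* (-1.17, SE 0.22) and *Amotl2* (-0.80, SE 0.17), a partner and a target of YAP, joined *Ccn2* to make 3 of 17. *Vim*, vimentin, *Cnn2*, a calponin, and *Cdh1* were 3 of 36 cytoskeleton and adhesion genes called, with -0.81, -1.02 and -0.74. With all 16 libraries *Tead4* and *Amotl2* had -0.88 and -0.69, and *Vim* and *Cnn2* -0.65 and -0.90, with adjusted p-values from 0.108 to 0.217.

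Lipid genes were also called without library 64. On the lists of lipogenesis, of lipid uptake and droplets and of fatty acid oxidation every call in that fit was higher, where 1.29% of all genes tested were called higher. *Scd1*, the stearoyl-CoA desaturase, was 137.2, 238 and 641 CPM with vehicle, 566 to 1874 CPM in the 7 TCDD libraries and 178 CPM in library 64, with a log2 fold change of 1.74 without it (SE 0.39, adjusted p = 0.0223) and 1.56 with it (SE 0.42, adjusted p = 0.109). *Scd1*, *Acacb*, the acetyl-CoA carboxylase of mitochondria (1.09, SE 0.23), and *Lpin2*, a phosphatidate phosphatase, were 3 of 24 lipogenesis genes. *Mgll* (1.09, SE 0.23), a monoacylglycerol lipase, and *G0s2* (1.05, SE 0.23), an inhibitor of triglyceride lipase, brought lipid uptake and droplets to 4 of 26, and *Pex11a* (0.87, SE 0.21), of peroxisome division, brought fatty acid oxidation to 3 of 32. With all 16 libraries *Acacb*, *Lpin2*, *Mgll*, *G0s2* and *Pex11a* had 0.78 to 0.98 with adjusted p-values from 0.0561 to 0.169. *Pck2* (-0.77, SE 0.19), a mitochondrial carboxykinase, *Shmt1* (-0.84, SE 0.19), of one-carbon metabolism, and *Nnmt* (-1.28, SE 0.26), which methylates nicotinamide, were lower and the sole members of their lists called. *Lcat* (0.93, SE 0.22), *Scp2* (0.63, SE 0.13), *Cpb2* (1.75, SE 0.42) and *Bco1* (0.92, SE 0.22), of cholesterol esterification, sterol transport, fibrinolysis control and carotene cleavage, were higher. *Plat* (-1.31, SE 0.33), the tissue plasminogen activator, and *Lect2* (-1.05, SE 0.24), *Rnf43* (-0.70, SE 0.16) and *Nfkbie* (-1.29, SE 0.31), a hepatokine, a Wnt receptor ligase and an NF-κB inhibitor, were lower. With all 16 libraries these 4, *Pck2*, *Shmt1* and *Nnmt* had -1.17 to -0.63 with adjusted p-values from 0.0538 to 0.518, and *Lcat*, *Cpb2* and *Bco1* had 0.84 to 1.55 with 0.0607 to 0.200. *Scp2* had 0.57 with an adjusted p of 0.0384, under the fold threshold.

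No member was called, with or without library 64, among the 33 genes of pyruvate metabolism and the TCA cycle tested, 12 of the pentose phosphate pathway, 27 of cholesterol synthesis and uptake, 24 nuclear receptors, 35 plasma proteins, 13 CYP4 hydroxylases or 25 interferon-stimulated genes. Their median log2 fold changes were between -0.12 and 0.08 with all 16 libraries, and that of the interferon-stimulated genes was -0.50 without library 64. *Gapdh*, a glycolysis gene often used for scaling, was 1738, 3632 and 6672 CPM with vehicle and 2241, 3126 and 7771 CPM with TCDD (0.04, SE 0.27). In a design with this spread, an uncalled gene is not shown to be unchanged. Macrophage markers summed to 41.9 to 142.6 CPM with TCDD and 47.4 to 95.9 CPM with vehicle, none called. Endothelial markers summed to 91.6 to 313 and 64.4 to 219 CPM, with none called. All 10 values were positive (median 0.40, against -0.02 for all genes tested).

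The libraries of each label were also fitted alone, which gives separate sets of libraries for the same contrast. Whether these sets are independent is not known, since shared isolations are not labelled. Under PkmΔDRE, strand 1 held 50.3% to 50.4% of the stranded pairs in TCDD libraries and 50.5% to 50.7% in vehicle libraries. The part of such library properties in the DEGs of that label was not tested. In the libraries labelled PkmΔDRE, 154 of 13621 genes were DEGs (1.13%), 110 induced and 44 repressed. In those labelled WT none of 13387 was called by edgeR, with 276 genes (2.06%) at an unadjusted p under 0.05. With no effect a share of about 0.05 would fall there. Without library 64 there were 11 DEGs of 13609 (0.0808%), all induced, with 904 genes (6.64%) at an unadjusted p under 0.05. All 11 were called under the label PkmΔDRE as well, with a median log2 fold change of 3.60 under WT and 4.14 under PkmΔDRE. Of the 154, 151 could be tested under WT without library 64, where 147 had the same sign, 69.5% had an unadjusted p under 0.05 and the median log2 fold change in the direction of the call was 1.33, against 1.84 in their own libraries. With library 64 in, 146 of 149 had the same sign and the median was 0.89.

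*Cyp1a1* had a log2 fold change of 8.67 under WT without library 64 and 7.52 under PkmΔDRE, *Tiparp* 2.92 and 4.37, *Arg1* 3.58 and 3.30, *Csf1* -1.29 and -2.03, and *Igf1* -1.67 and -1.63. The difference between the labels was tested in all 16 libraries, and 1 of 14381 genes was called. This was *Mir6236* (ENSMUSG00000098973), annotated as a microRNA gene, with a response 2.76 lower on the log2 scale under PkmΔDRE (SE 0.39, adjusted p = 0.0258). *Mir6236* was 6.27, 7.38, 6.28 and 7.44 CPM in the TCDD libraries labelled PkmΔDRE, 22.4 to 66.3 CPM in the 8 vehicle libraries and 34.2 to 57.99 CPM in the TCDD libraries labelled WT, so the 4 stood below all 12 others. Unmapped pairs made up 2.43% to 3.16% in those 4 libraries and 3.06% to 7.74% in the others, and strand 1 held 50.3% to 50.4% of their stranded pairs against 50.5% to 50.7%. The part of these library properties in the value of *Mir6236* was not tested. The call was kept in 3 of the 16 fits that leave out 1 library, which were those without 27, 64 and 97.

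The hours 48 and 120 h, each with its own vehicle libraries, carried much of the same response. The libraries of 96 h, which lie between 72 and 120 h, were not compared here. At 48 h, 91 of 13981 genes were DEGs (0.651%), and at 120 h 453 of 15324 (2.96%). The DEGs of 72 h shared 53 genes with those of 48 h, which is 40.5% of the 72 h list and 58.2% of the 48 h list, and 93 genes with those of 120 h, 70.99% of the 72 h list and 20.5% of the 120 h list. There were 45 DEGs common to the 3 hours, and 30 DEGs of 72 h were DEGs at neither 48 nor 120 h. All but 1 of the DEGs of 72 h could be tested at each other hour, and all 130 had the same sign at 48 h and at 120 h. Their change was smaller in size in 100 of 130 at 48 h and in all but 26 of 130 at 120 h, the genes having been chosen at 72 h.

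The difference in response between hours was tested directly. No gene of 15153 was called between 72 and 48 h by edgeR, where 120 genes (0.792%) had an unadjusted p under 0.05. Between 72 and 120 h it called no gene of 15933, and 268 genes (1.68%) had an unadjusted p under 0.05. With no effect a share of about 0.05 would fall there. DESeq2 called none in either comparison. *Cyp1a2* had log2 fold changes of 4.49 (SE 0.88) at 48 h, 7.07 at 72 h and 5.31 (SE 0.45) at 120 h, and *Ugt1a9* 2.66 (SE 0.54), 5.80 and 5.05 (SE 0.90). *Fabp1* had 0.47 (SE 0.39), 3.27 and 2.62 (SE 0.62) and was no DEG at 48 h, *Arg1* had 1.83 (SE 0.59), 3.26 and 2.82 (SE 0.47), and *Ces1b* 0.68 (SE 0.24), 2.75 and 3.98 (SE 0.57). In the other direction, *Igf1* had -1.08 (SE 0.20), -1.33 and -2.39 (SE 0.37) and *Lmcd1* -2.19 (SE 0.45), -2.44 and -1.30 (SE 0.53). None of these differences between hours passed the adjusted test.

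**Figure D5:**
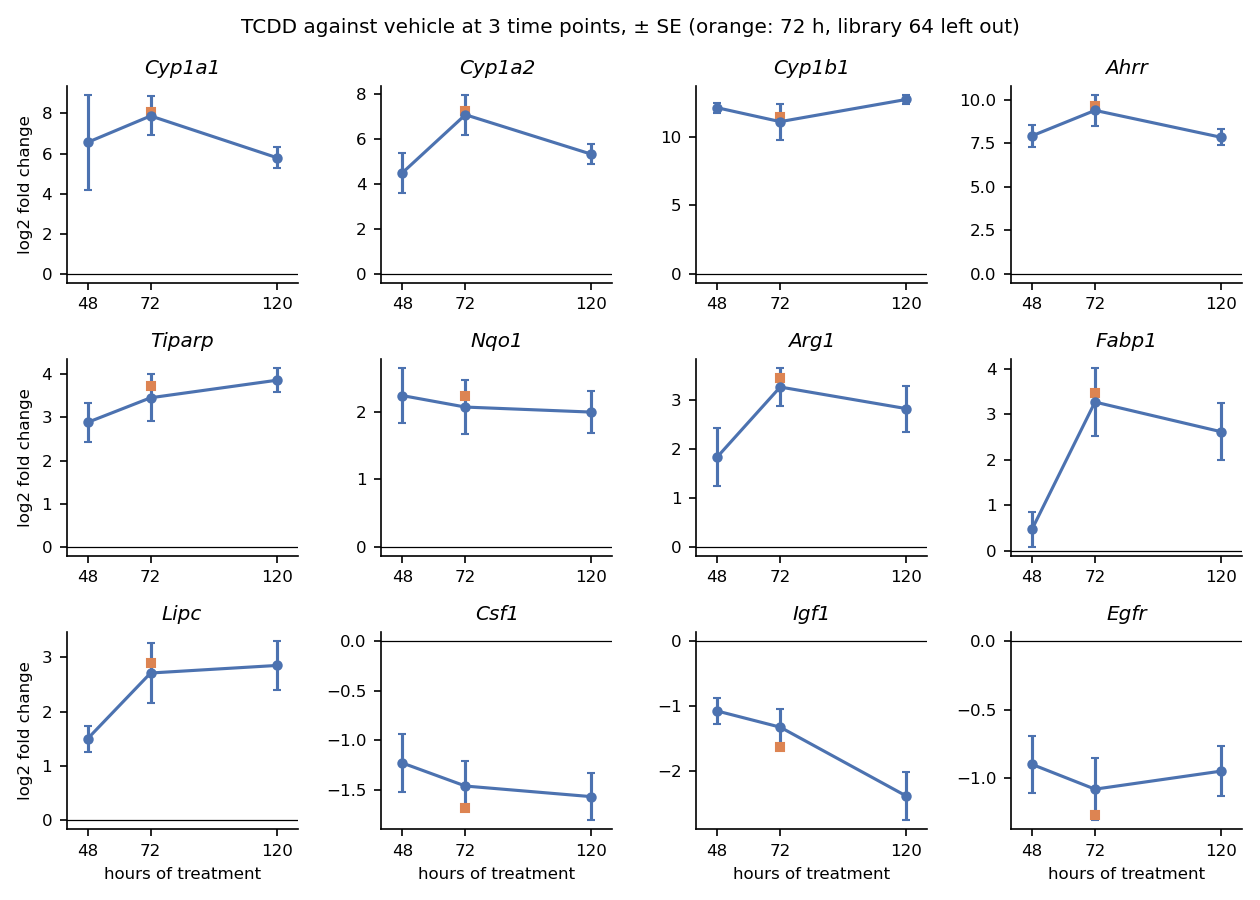
Log2 fold change of TCDD against the vehicle of the same hour (vertical axis, bars SE) at 48, 72 and 120 h (horizontal axis, hours of treatment) for 12 genes, with the value of 72 h without library 64 in orange. *Fabp1* goes from 0.47 at 48 h to 3.27 at 72 h, and *Igf1* from -1.08 to -1.33 and -2.39.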

How the data were processed

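The authors trimmed reads, aligned the pairs with STAR to GRCm39 and deposited, per library, unnormalized counts of uniquely mapped pairs for 55359 genes. The submitters' processing notes name FastQC 0.11.3, Trimmomatic 0.39, STAR 2.7 and DESeq2. The column without regard to strand was used, so reads of a gene and its antisense partner cannot be told apart. Symbols were matched for 52083 genes from GENCODE M21. The lines that name no gene, 18.2% to 24.8% of the pairs, were left out.

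Groups were taken from the labels. Counts of the 16 libraries of 72 h were scaled with TMM, filtered with filterByExpr at a minimum count of 10 and a minimum total of 15, and tested with the robust quasi-likelihood test of edgeR 4.0.16 (R 4.3.3), with the genotype label as a covariate and Benjamini-Hochberg adjustment over all genes tested. DEGs had an adjusted p under 0.05 and changed 1.5-fold or more. Differences between labels and hours were tested as interactions, the latter with the 32 libraries of both hours. Scripts were tested on simulated data. Counting intervals and limits cover counting error only. CPM are of the TMM-scaled library size. Depth was 15083399 to 24932218 pairs on genes.

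The alternatives were RLE scaling, DESeq2 1.42.0, no filter on low counts, no covariate, the shares of pairs on no gene or unmapped as a covariate, each label alone, the sum of the stranded counts, no fold threshold and leaving out each library. The fit of the libraries labelled WT without library 64 was chosen after seeing the data. Named genes were the 15 largest rises and 15 largest falls among DEGs with and without library 64 with a mean of at least 1 CPM and no predicted gene name, the AHR signalling list, *Pkm*, the called members of each list with the largest changes (up to 4 a direction) and, where none was called, up to 2 of its most abundant members, and any gene called between labels. Members and lists were chosen with earlier results of these data known, and further genes were named after their values were seen. These are *Slitrk5*, *Sytl2*, *Adh1*, *Ces1b*, *Aox3*, *Hsd17b13*, *Gckr*, *Xylb*, *Ereg*, *Nrg1*, *Erbb3*, *Il1r1*, *Notch1*, *Lrp4*, *Entpd2*, *Nuak2*, *Sept8* and the genes named as called without library 64. A few genes that these rules name are not reported here. Tables were prepared with pandas 2.3.3 under Python 3.11.15 and figures with matplotlib 3.10.9. Promoter sequences came from a RefSeq table on GRCm38.p6 and were matched by symbol.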

Additional observations from a re-analysis of the deposited data

Results flagged for a closer look

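Within each group of 4 libraries, the highest or lowest library was set against the others for the genes the report names, and it lay apart by the 95% critical value of Dixon's test in 44 of 444 sets. About 1 in 20 such sets would be flagged by chance if values were normally distributed, which CPM need not be. A set with all but 1 library at 0 is always flagged, as for *Aldh3a1*, so no excess over chance is read from the 44. Of the 44, 16 were on library 27, a vehicle library labelled WT, and 3 on library 64.

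Library 27 was the highest of its group for *Pkm* (2017 CPM, the others 339 to 475), *Alb* (10491), *Lmcd1* (83.3), *Cyp1b1* (1.87), *Aldh3a1* (0.333), *Ugt1a9* (10.6), *Por* (831), *Adh7* (14.7), *Adh1* (687), *Ces1f* (24.5), *Kcnv2* (0.874), *Slc46a3* (23.9), *Lrp4* (18.8), *Pmp22* (195), *Scd1* (641) and *Cpb2* (846 CPM). In the same group, *Arnt* was highest in library 25 (66.6), *Steap1* highest in library 28 (13.2) and *Erbb3* lowest in library 26 (44.2 CPM).

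Among the TCDD libraries labelled WT, library 64 was lowest for *Entpd2* (2.67 CPM, the others 23.4 to 27.5) and highest for *Rrm2* (75.3, the others 18.9 to 24.6) and *Hamp* (28.8, the others 4.54 to 6.01). Library 63 was highest for *Reln* (482 CPM, the others 3.32 to 37.6). Library 61 was lowest for *Pmp22* (33.4) and *Cpt1c* (1.71) and held the sole *Aldh3a1* reads of its group (0.185 CPM).

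Among the vehicle libraries labelled PkmΔDRE, library 97 was lowest for *Xdh* (79.7) and *Mir6236* (22.4) and highest for *Sytl2* (0.788 CPM). Library 98 was highest for *Entpd2* (8.47) and *Hamp* (252, the others 14.1 to 22.8 CPM). Library 100 was highest for *Cyp1b1* (0.142), *Aldh3a1* (0.0947) and *Fbln2* (60.1) and lowest for *Ugt1a9* (0.331 CPM).

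Among the TCDD libraries labelled PkmΔDRE, library P172_133 was highest for *Tnfaip2* (103.4) and *Aldh3a1* (0.0960 CPM). Library P172_134 was lowest for *Ahr* (27.3) and *Mcm5* (8.88) and highest for *Entpd2* (50.8 CPM). Library P172_135 was lowest for *Ugt1a6a* (3.47) and highest for *Lcat* (59.4), and library P172_136 was lowest for *Lrp4* (43.2) and *Hamp* (3.25 CPM).

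The response of *Mir6236* differed between the labels, by -2.76 on the log2 scale in PkmΔDRE against WT (adjusted p = 0.0258).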

How the results depend on the processing

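The DEGs of the 16 libraries became 290 with DESeq2 (201 higher, 89 lower, with every edgeR DEG among them). They became 0 with the libraries labelled WT alone by edgeR, where 276 genes (2.06%) had an unadjusted p under 0.05. They became 11 when library 64 was also left out. Each other setting stayed within 1.5 times of the main number, with 154 as the highest. Higher genes made up 80.2% of the calls, 69.3% with DESeq2, 71.4% with the label PkmΔDRE alone and 61.7% without library 64. Leaving out each library in turn gave 71 to 308 DEGs. The number was under 87 without library 61 (71), 100 (72), P172_135 (77), P172_136 (81), P172_133 (83), 99 (83), P172_134 (84) or 26 (86), and it was 226 without 27 and 308 without 64. Of the DEGs, 63 were called in every one of these fits, 59 induced and 4 repressed. Among the 167 named genes with a fit, 384 pairs of gene and setting lost the call, 4007 kept their side of it and the rest (2.40% of pairs) gained a call. No named gene was called in opposite directions, and 33 genes, none of them a DEG of the 16 libraries, had a fold change of the other sign in some setting, such as *Pkm* (-0.18 to 0.63 when each library was left out). The difference between labels was 1 gene, 7 with DESeq2, and 0 to 1 when each library was left out. The differences from 48 and from 120 h were 0 in every setting run, by edgeR and by DESeq2. No paired analysis was possible from the labels, because the labels carry no replicate number. A fit that pairs libraries by their order within the groups was not run. Genes under the count minimum were not tested.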

Other observations

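Glycolysis and glycogen genes were high in 2 libraries of opposite treatment, both labelled WT, library 27 (vehicle) and library 63 (TCDD). This was seen in the values and not tested. In the order of library numbers, both hold the same place within their groups. Whether libraries at the same place share an isolation is not labelled and was not tested. *Gapdh* was 6672 and 7771 CPM in libraries 27 and 63, against 1738 to 4598 CPM in the other 14 libraries. *Aldoa*, aldolase, was 2029 and 2154 CPM against 267 to 750 CPM, *Eno1*, enolase, 4244 and 4355 against 1062 to 2859 CPM, and *Pkm* 2017 and 1689 against 339 to 798 CPM. *Gbe1*, the glycogen branching enzyme, was 650 and 859 CPM against 68.9 to 322 CPM, and *Ugp2*, which makes UDP-glucose, 884 and 853 against 93.2 to 541 CPM. In the same libraries *Fgb*, a fibrinogen chain, was 347 and 141.8 CPM against 478 to 1957 CPM, and *Spp1*, osteopontin, 76.2 and 42.6 against 246 to 1145 CPM. Of 169 genes looked at, both libraries lay above all 14 others for 18 and below all of them for 8. These 169 were the genes chosen to be named, and the same count over all genes tested was not made. With 1 such library in each arm, the fold changes of these genes carry wide errors, as in *Aldoa* (-0.27, SE 0.37) and *Pkm* (0.15, SE 0.38).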
